A study of Drosophila melanogaster with 4 samples.

Results

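Genes of the chemosensory system were followed in whole larvae of Drosophila melanogaster, at the wandering stage of the third instar, that were mutant or wild type for the long noncoding RNA gene Hsromega. The members were all genes whose symbol in the authors' table starts with Obp, Or, Gr or Ir and a digit, with Orco added. This rule found 36 of the 12116 genes of the table: 23 odorant-binding proteins (Obp), 2 odorant receptors (Or), 4 gustatory receptors (Gr) and 7 ionotropic receptors (Ir). The rule used names and no measured value. The hsromega66 larvae were homozygous for a mutant allele of Hsromega, and the control larvae were of the wild-type stock Oregon R+. In this design a difference due to the allele cannot be told apart from one between the stocks. The study made 2 libraries of total RNA per genotype, each from 5 pooled whole larvae, with ribosomal RNA removed. The values analysed were the authors' pooled FPKM (fragments scaled to transcript length and to the number of mapped fragments), 1 value per transcript and genotype. They have no spread between libraries, so no standard deviation stands beside them, and the depth of the libraries is unknown. Unless said otherwise, a level below is the sum of FPKM over all listed transcripts of that gene, and a difference is log2(FPKM + 1) in hsromega66 minus that in control, which understates differences of low genes.

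Insects detect odours and tastes with neurons that carry receptors of distinct families. Odorant receptors form ligand-gated channels with the co-receptor Orco, gustatory receptors detect sugars, bitter compounds and carbon dioxide, and ionotropic receptors descend from glutamate receptors and detect acids, amines, salts and humidity. Odorant-binding proteins are small secreted proteins, held together by disulfide bonds, that bind hydrophobic ligands in the fluid around the sensory dendrites. Several are also known from tissues with no role in smell, such as fat body, glia and the male reproductive tract. A larva has few chemosensory neurons. In RNA of whole larvae, fewer cells of a type and less RNA per cell cannot be told apart.

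The mutated gene Hsromega stood at 0.290 FPKM in hsromega66 and 232 FPKM in control larvae, and its 2 listed transcripts did not pass the threshold in the authors' deposited table (lowest q = 0.998). Markers of larval tissues were listed in both genotypes, but the ovary marker vas was at 0 in control. In several tissue lists all markers lay on the same side of 0, which does not measure the amount of a tissue. All 5 gut markers were higher in hsromega66 (median difference 1.30), 3 of them with a Cuffdiff q of at most 0.05 in the authors' deposited table. All 5 haemocyte markers (median -0.79) and all 6 muscle markers (median -0.49) were lower. None of these passed by that q, and 3 haemocyte and 0 muscle markers had an unadjusted Cuffdiff p up to 0.05. Testis and salivary gland markers had median differences of -0.054 and -0.15. Of the 3 salivary gland markers, 1 lay above 0 and 2 below. The lowest p was that of Sgs3, at 416 FPKM in hsromega66 and 863 FPKM in control. Its Cuffdiff p in the authors' deposited table was 0.00115 and its q 0.0783. The part of these tissues in the chemosensory values was not tested. Of 14 neuronal marker genes, 10 were listed, 5 with a difference above 0 and 5 below, and a median of 0.011. Their summed level was 70.4 FPKM in hsromega66 and 65.8 FPKM in control. Syt1 carried much of that sum, at 35.8 FPKM in hsromega66 and 22.8 FPKM in control, with a lowest q of 0.232 in the authors' deposited table. The calcium channel gene cac fell to 1.37 FPKM in hsromega66, against 7.35 FPKM in control. The lowest q among its 4 listed transcripts was 0.0177 in the authors' deposited table. Glial markers, 8 listed of 9, summed to 451 FPKM in hsromega66 and 509 FPKM in control. Fat body markers, 6 listed of 7, summed to 33697 FPKM in hsromega66 and 36620 FPKM in control. Among markers of sense organ support cells and mechanosensory neurons, only pros was listed of 7 names, at 4.09 FPKM in hsromega66 and 7.27 FPKM in control.

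The families differed in how many of their genes were listed. In the Ensembl annotation with the same symbols, 23 of 51 Obp genes had a row in the table analysed here, which is 45.1%. The shares were 3.28% for Or genes (2 of 61), 6.67% for Gr genes (4 of 60) and 10.6% for Ir genes (7 of 66). The co-receptor genes Orco, Ir8a, Ir25a and Ir76b were not among the rows analysed here. The same held for the carbon dioxide receptor genes Gr21a and Gr63a, the bitter receptor genes Gr33a and Gr66a, the fructose receptor gene Gr43a and the pheromone-binding protein gene lush. Every transcript of the table had at least 0.669 FPKM in 1 genotype, and the lowest such value among the 46 member transcripts was 0.720 FPKM (Gr47b). A gene that is low in both genotypes is therefore not part of these values. A gene under that limit in 1 genotype was listed through the other, which fixes the direction of its difference. This held for 6 members listed through control (Ir51a, Ir56b, Ir75d, Ir76a, Obp22a and Obp84a) and 3 listed through hsromega66 (Gr47b, Gr94a and Obp56i). Of all genes, 408 were listed through control and 334 through hsromega66 in the same way.

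**Figure D1:**
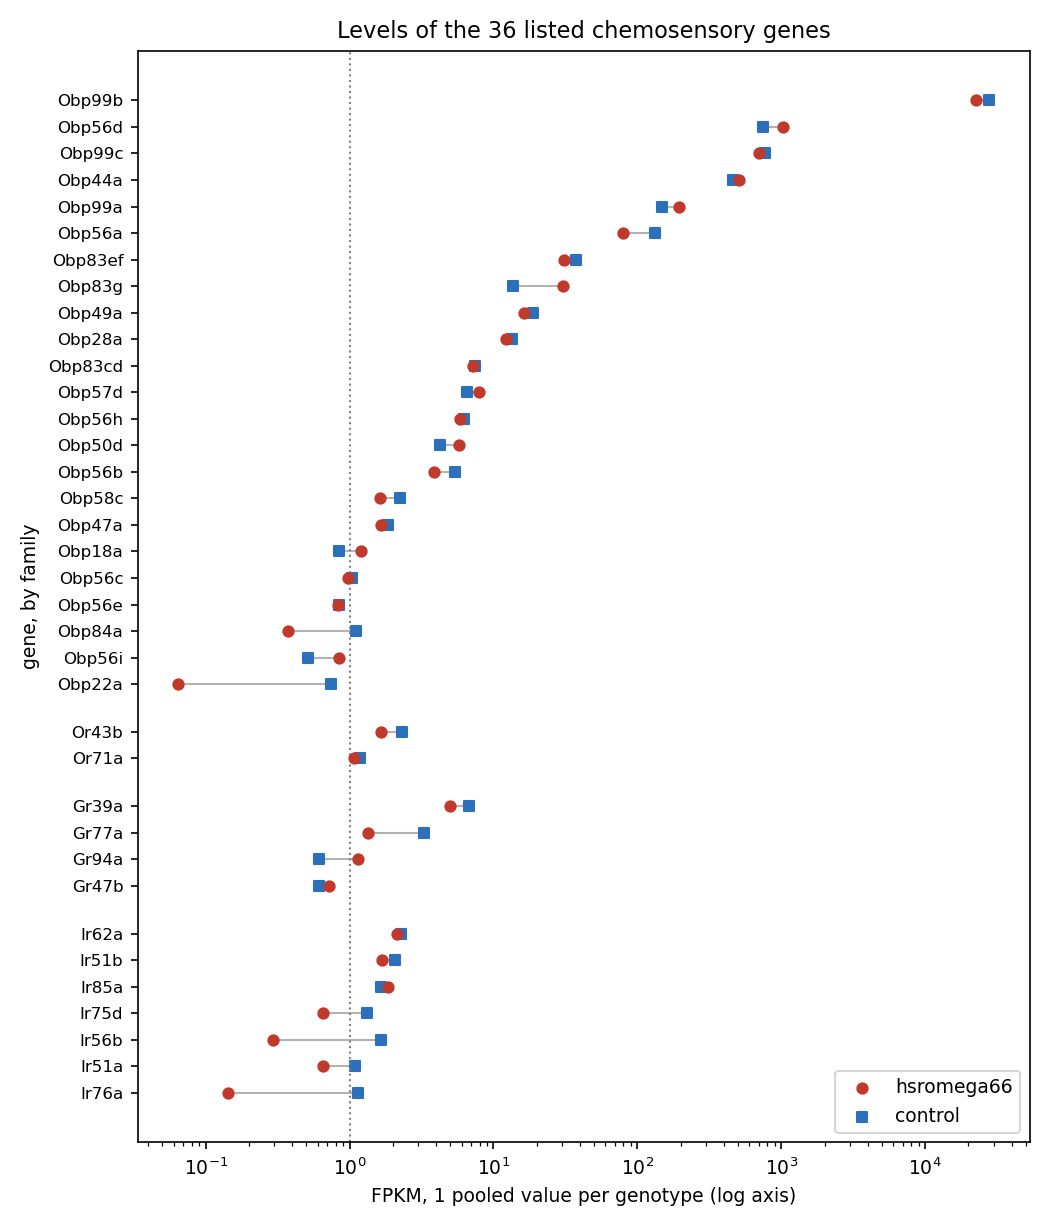
Level of each of the 36 members in hsromega66 (red circles) and control (blue squares) larvae, as pooled FPKM on a log axis, by family. The dotted line marks 1 FPKM. Obp genes span the range from 0.0646 FPKM (Obp22a, hsromega66) to 27883 FPKM (Obp99b, control), while no receptor gene exceeds 6.74 FPKM (Gr39a, control).

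The first comparison asked whether chemosensory genes differed between hsromega66 and control larvae. No member was called: in the authors' deposited Cuffdiff table none had a transcript with a q of at most 0.05, against 2.31% of all genes. The lowest q of a member in the authors' deposited table was 0.312, and 43 of the 46 member transcripts had a q of 0.998. Read at p up to 0.05 without adjustment, the authors' deposited table gave 3 members, against 7.82% of all genes in either direction. Of these, 1 was higher in hsromega66, against 4.67% of all genes, and 2 were lower, against 3.2% of all genes. The 3 were Obp83g, Obp56a and Ir56b. An absolute log2 difference of at least 1 was found for 2 members, Obp83g and Ir56b, against 5.93% of all genes, and one of at least 0.5 for 7 of 36 members, against 18% of all genes. These counts are near those of the table as a whole. Hsromega itself, at 0.290 FPKM in hsromega66 and 232 FPKM in control, was not called by q either. The absence of calls therefore does not show that the members were alike in the genotypes.

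The median log2 difference of the 36 members was -0.12, beside -0.013 over all genes. Of the members, 11 lay above 0 and 25 below, and of all genes 51.8% lay below 0. The 9 members listed through 1 genotype alone are among them, so these counts and medians carry the table's lower limit. Of the 27 other members, 8 lay above 0 and 19 below. Of all 11374 genes not listed through 1 genotype alone, 5502 lay above 0 and 5872 below. Among genes with a mean level under 5 FPKM, 16 of 21 members and 55.1% of all genes lay below 0. Among genes at or above that level, 9 of 15 members and 50.1% of all genes lay below 0. By family the median was -0.096 for Obp, -0.19 for Or, -0.14 for Gr and -0.34 for Ir genes.

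**Figure D2:**
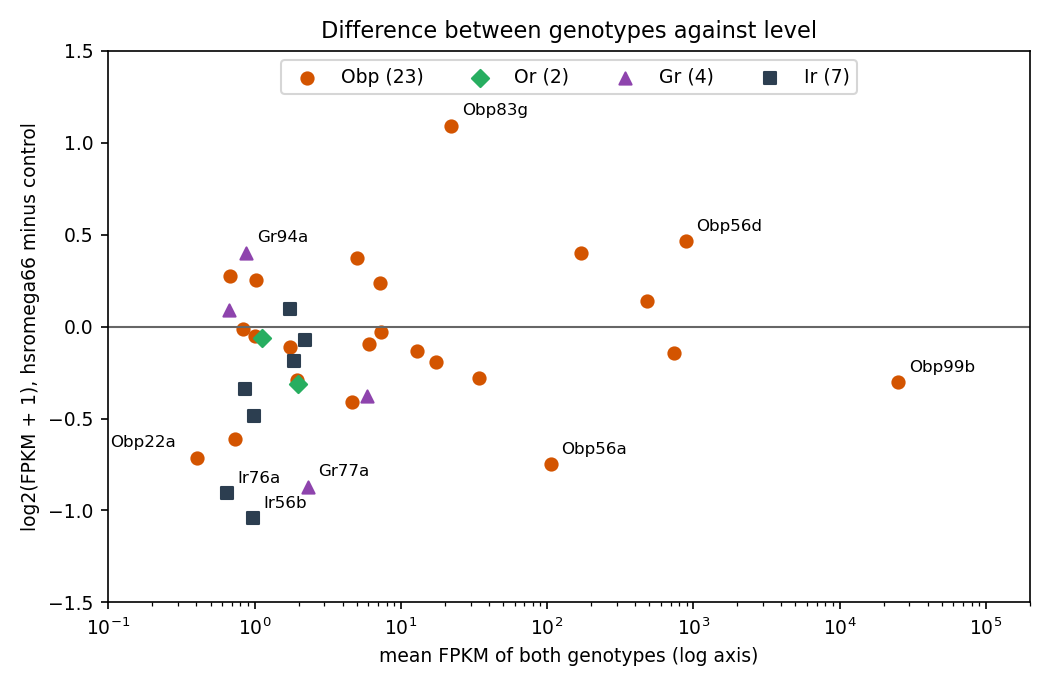
Difference in log2(FPKM + 1), hsromega66 minus control, against the mean FPKM of both genotypes on a log axis, for the 36 members by family. Obp83g at 1.09 and Ir56b at -1.04 mark the ends of the range. The 7 Ir genes, the Or genes and all Gr genes except Gr39a have a mean level under 5 FPKM.

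Odorant-binding proteins made up nearly all of the chemosensory signal. Their FPKM summed to 25258 in hsromega66 and 30269 in control larvae, 2.71% and 3.12% of all FPKM in the same genotypes. A single gene carried most of it. Obp99b (FBgn0039685, 3R, 29716254 to 29716896, minus strand, dm6), which is known in adult flies from the fat body of the male head, stood at 22615 FPKM in hsromega66 and 27883 FPKM in control. It ranked 3rd of 12116 genes in hsromega66 and 2nd in control, and it held 89.5% of the family's FPKM in hsromega66 and 92.1% in control. Its log2 difference was -0.30, and the p of its main transcript in the authors' deposited table was 0.540. The fat body marker genes listed above had a median difference of -0.11, with 5 of 6 below 0. The part of the fat body in the level of Obp99b was not tested.

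Another 5 Obp genes exceeded 50 FPKM in both genotypes, and with Obp99b they made up 99.5% of the family's FPKM in hsromega66 and 99.6% in control. Obp56d was listed at 1036 FPKM in hsromega66 and 750.3 FPKM in control, and Obp99c at 697 FPKM in hsromega66 and 769 FPKM in control. These 2 genes changed places in the order of levels between the genotypes, but without a spread between libraries such neighbours cannot be separated. Obp44a, a secreted protein of the nervous system produced by glia, stood at 508 FPKM in hsromega66 and 462 FPKM in control. Obp99a was at 195 FPKM in hsromega66 and 148 FPKM in control. Obp56a, at 78.9 FPKM in hsromega66 and 133 FPKM in control, was the lowest of the group.

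By protein class, the minus-C group, Obps that lack a pair of the cysteines conserved in the family, had a median of 508 FPKM in hsromega66 and 462 FPKM in control. It holds Obp99b, Obp99c, Obp44a, Obp99a and Obp83g here, with levels between 30.5 and 22615 FPKM in hsromega66 and between 13.8 and 27883 FPKM in control. Of these 5 genes, 3 were higher and 2 lower in hsromega66. The plus-C group, which has additional cysteines, had 3 listed members, with a median of 5.79 FPKM in hsromega66 and 4.24 FPKM in control. They were Obp49a, known for suppressing sugar taste in the presence of bitter compounds, at 16.3 FPKM in hsromega66 and 18.7 FPKM in control, Obp50d at 5.79 FPKM in hsromega66 and 4.24 FPKM in control, and Obp58c at 1.64 FPKM in hsromega66 and 2.23 FPKM in control. The groups overlap in control, where Obp49a of the plus-C group exceeds Obp83g of the minus-C group. Obp83ef and Obp83cd, which carry tandem binding domains, stood at 30.7 and 7.25 FPKM in hsromega66 and at 37.5 and 7.41 FPKM in control. The 13 other Obp genes had a median of 1.64 FPKM in hsromega66 and 1.86 FPKM in control, with Obp56d and Obp56a far above the rest.

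The largest differences among well-expressed members lay in Obp83g and Obp56a. Obp83g (FBgn0046875, 3R, 6111671 to 6112302, minus strand, dm6) had 30.5 FPKM in hsromega66 and 13.8 FPKM in control, a log2 difference of 1.09. In the authors' deposited table its p was 0.00870 and its q 0.346, so it did not pass the threshold. Its direct neighbour on the same strand, Obp83ef, lies 636 bp away and did not share the direction, with a log2 difference of -0.28. Obp56a (FBgn0034468, 2R, 19697723 to 19698508, plus strand, dm6) had a log2 difference of -0.75, with p = 0.0122 and q = 0.453 in the authors' deposited table. No annotated gene overlaps Obp83g or Obp56a. The largest difference toward higher levels after Obp83g was that of Obp56d, at 0.46, with a lowest p of 0.130 in the authors' deposited table.

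Neighbouring Obp genes had very different levels. In the cluster on 2R (19697723 to 19712932, dm6) 5 genes lie within 15.2 kb, all 5 annotated there. Obp56b lies 205 bp from Obp56a on the opposite strand and was listed at 3.83 FPKM in hsromega66 and 5.41 FPKM in control. Obp56c followed at 0.975 FPKM in hsromega66 and 1.05 FPKM in control, and Obp56e at the far end stood at 0.827 FPKM in hsromega66 and 0.842 FPKM in control. Between these low genes lies Obp56d, so that the highest level of the cluster was 1253 times the lowest in hsromega66 and 891 times in control. In the cluster on 3R with Obp99a, Obp99c and Obp99b (45.2 kb), the highest level was 116 times the lowest in hsromega66 and 189 times in control. The fourth annotated gene of that cluster, Obp99d, was not among the rows analysed here. Within the Obp83 cluster (3R, 6108134 to 6111034 for Obp83cd and Obp83ef, with Obp83g beside them), levels differed by 4.24 times in hsromega66 and 5.05 times in control. Obp83cd and Obp83ef overlap by 92 bp on opposite strands, and the sources used here do not say whether counting used strand, so how reads were shared out between this pair is uncertain.

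**Figure D3:**
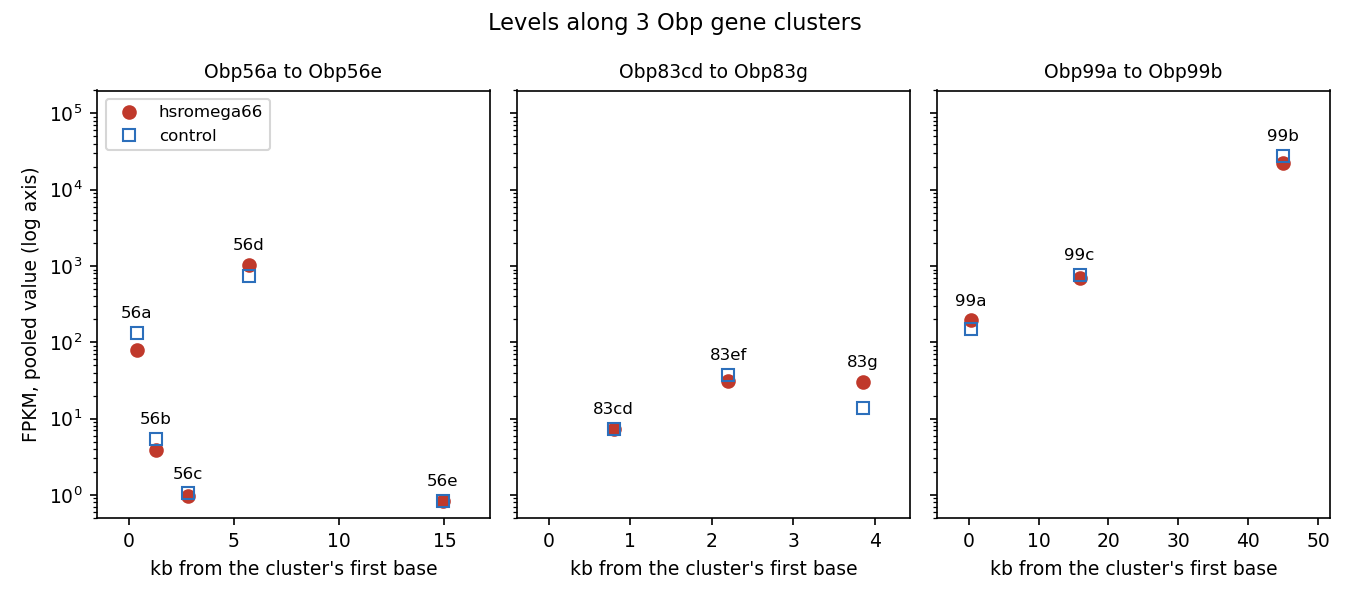
Levels of neighbouring Obp genes in hsromega66 (red circles) and control (open blue squares) as pooled FPKM on a log axis, against the distance of each gene's midpoint from the first base of its cluster. The gap between Obp56d and Obp56e or Obp56c is far larger than any gap between genotypes. Obp83g and Obp56a show the clearest separation of the genotypes.

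The remaining Obp genes were low or differed little. Obp28a, known from the adult antenna, was listed at 12.2 FPKM in hsromega66 and 13.4 FPKM in control. Obp57d, a gene known from taste hairs on the legs, was listed at 7.88 FPKM in hsromega66 and 6.54 FPKM in control. It lies inside the span of the cuticle protein gene Cpr57A, with overlapping exons on the same strand, and Cpr57A stood at 349 FPKM in hsromega66 and 414 FPKM in control, so the value of Obp57d is uncertain. Obp22a, known as a seminal fluid protein of adult males, was listed at 0.0646 FPKM in hsromega66 and 0.745 FPKM in control, with p = 0.217 in the authors' deposited table. Obp84a stood at 0.374 FPKM in hsromega66 and 1.10 FPKM in control, with p = 0.539 in the authors' deposited table. Both were listed through control alone. The exons of Obp84a overlap those of Dtwd2 on the opposite strand, at 1.56 FPKM in hsromega66 and 2.13 FPKM in control. Obp18a, Obp47a and Obp56i lay between 0.517 and 1.86 FPKM in both genotypes.

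Receptor genes were near the lower limit of the table. The 13 listed Or, Gr and Ir genes summed to 18.3 FPKM in hsromega66 and 25.9 FPKM in control, with a median of 1.14 FPKM in hsromega66 and 1.65 FPKM in control. In hsromega66, 8 of them reached 1 FPKM, and in control 11 did, with 4 of the 13 listed through control alone and 2 through hsromega66 alone. Of the 13 receptor genes, 10 overlap another annotated gene, 8 of them lying inside its span, and for 9 of the 10 the overlapping gene was higher than the receptor in both genotypes. Among the Obp genes 7 of 23 overlap another gene. The share over all genes is not given here, so whether overlap is unusual among receptors cannot be judged. How reads were shared out between a receptor and the gene it overlaps cannot be seen in pooled values, and the part of the overlapping genes in the receptor levels was not tested.

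The ionotropic receptors included Ir56b (FBgn0034456, 2R, 19508167 to 19509653, plus strand, dm6), which is known for the taste of salt and was listed at 0.291 FPKM in hsromega66 and 1.66 FPKM in control. Its log2(FPKM + 1) difference was -1.04, and the log2 ratio in the authors' deposited table was -2.51, with p = 0.00755 and q = 0.312. Its q did not pass the threshold used here. No annotated gene overlaps it. Being under the table's limit in hsromega66, it was listed through control. Ir76a, an amine receptor of the adult antenna, stood at 0.143 FPKM in hsromega66 and 1.14 FPKM in control, with p = 0.373 in the authors' deposited table. Its listed transcript was a variant that shares a splice junction with the annotated one, and its exons overlap CG14102 on the opposite strand, at 0.998 FPKM in hsromega66 and 0.982 FPKM in control. Ir75d, known from the adult antenna, was at 0.653 FPKM in hsromega66 and 1.31 FPKM in control. It lies inside COX6AL2 on the same strand, with overlapping exons, at 3.82 FPKM in hsromega66 and 3.48 FPKM in control, and also overlaps Prp6. Ir51a, annotated as a pseudogene with no overlapping gene, stood at 0.648 FPKM in hsromega66 and 1.08 FPKM in control.

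These 4 Ir genes were all listed through control alone, so their lower level in hsromega66 was fixed by the table's limit. The other 3 Ir genes were above the limit in both genotypes, and 1 was higher and 2 lower in hsromega66. Ir62a, inside Iml1 on the same strand (10.5 FPKM in hsromega66, 9.83 FPKM in control), had 2.13 FPKM in hsromega66 and 2.28 FPKM in control. Ir51b, 1658 bp from Ir51a, had 1.68 FPKM in hsromega66 and 2.06 FPKM in control. It lies inside the gene row on the opposite strand, at 22.7 FPKM in hsromega66 and 22.8 FPKM in control. Ir85a, with 1.84 FPKM in hsromega66 and 1.65 FPKM in control, overlaps exons of Pif1A, at 43.3 FPKM in hsromega66 and 44.4 FPKM in control.

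Gustatory receptors were listed for 4 genes. Gr39a, which makes several receptors by joining alternative first exons to shared last exons, had the highest receptor level, 4.95 FPKM in hsromega66 and 6.74 FPKM in control. It lies inside Mondo on the opposite strand, at 25.8 FPKM in hsromega66 and 26.1 FPKM in control. Its 4 listed transcripts ranged from 1.00 to 1.32 FPKM in hsromega66 and from 1.29 to 2.40 FPKM in control, and the lowest p among them in the authors' deposited table was 0.736. Gr77a stood at 1.34 FPKM in hsromega66 and 3.28 FPKM in control, a log2 difference of -0.87, with p = 0.354 in the authors' deposited table. It lies inside CG13252 on the opposite strand, at 19.6 FPKM in hsromega66 and 20.4 FPKM in control. Gr94a, listed through hsromega66 alone, had 1.14 FPKM in hsromega66 and 0.618 FPKM in control, and lies inside p53, at 5.13 FPKM in hsromega66 and 4.39 FPKM in control. Gr47b, also listed through hsromega66 alone and with no overlapping gene, was at 0.720 FPKM in hsromega66 and 0.615 FPKM in control.

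The 2 odorant receptors were Or43b and Or71a, both best known from adult olfactory organs. Or43b was listed at 1.65 FPKM in hsromega66 and 2.30 FPKM in control, and its exons overlap those of Cul1 on the opposite strand, at 61.6 FPKM in hsromega66 and 57.5 FPKM in control. Or71a lies inside Plp on the same strand, at 17.0 FPKM in hsromega66 and 11.4 FPKM in control. As a gene it had 1.08 FPKM in hsromega66 and 1.17 FPKM in control, a difference of -0.063. With Orco not among the rows, nothing can be said here of the channel's shared subunit.

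Opposite directions among transcripts of a gene were not particular to the members. Of the 8 members with more than 1 listed transcript, 4 had them, a share below the 68.3% of all genes with several transcripts. In 2 of the 4 the transcript higher in hsromega66 differed little. It was at 1.31 FPKM in hsromega66 and 1.29 FPKM in control for Gr39a, and at 1.67 and 1.43 FPKM for Obp99c. For Or71a, 1 transcript was listed at 1.08 FPKM in hsromega66 and 0 in control, and the other at 0 in hsromega66 and 1.17 FPKM in control, with p = 0.162 and p = 0.178 in the authors' deposited table. Obp56h, known for a role in male mating, had a transcript at 0.00216 FPKM in hsromega66 and 4.71 FPKM in control, and another at 5.81 FPKM in hsromega66 and 1.58 FPKM in control. The authors matched both to the same annotated transcript, and their sum was 5.81 FPKM in hsromega66 and 6.29 FPKM in control. In the authors' deposited table these rows had p = 0.219 and p = 0.116. A minor transcript of Obp99b was listed at 0 in hsromega66 and 8.24 FPKM in control, with p = 0.0954 in the authors' deposited table, beside a main transcript more abundant by far in both genotypes. In all, 3 of the 46 member transcripts were listed at 0 in 1 genotype, against 1.7% of all transcripts.

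**Figure D4:**
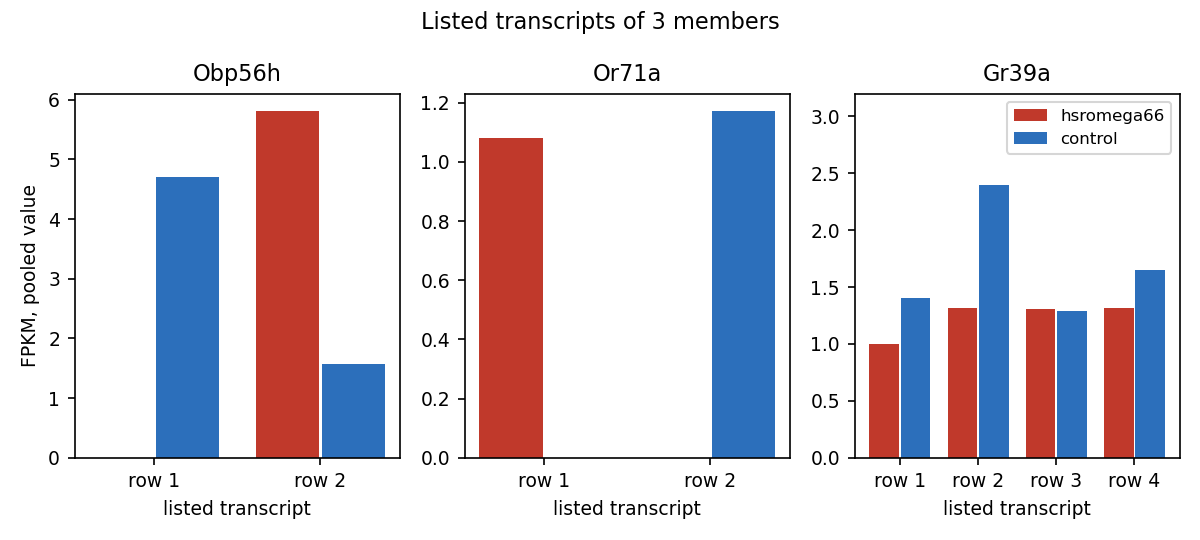
FPKM of each listed transcript of Obp56h, Or71a and Gr39a in hsromega66 (red, left bar) and control (blue, right bar), as pooled values without error. In Obp56h and Or71a the transcript that is higher in hsromega66 is the lower one in control, while the sums of the genotypes are 5.81 and 6.29 FPKM for Obp56h and 1.08 and 1.17 FPKM for Or71a.

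Further genes of chemosensation were taken from a list of 58 names, synonyms included, of which 35 were listed. It holds signal transduction, channels, transcription factors and other secreted or membrane proteins of sensilla. By the authors' deposited q, none rose and 1 fell, against 0.908% of all genes for falls. The median difference of the list was -0.049, with 16 genes above 0 and 19 below. These counts carry the table's lower limit. Among genes with 1 listed transcript, CheB38b, Os-C and dpr1 were listed through control alone. In the same way rpk, CheA29a, ppk25 and ppk28 were listed through hsromega66 alone. The limit fixed the direction of their differences. The gene that fell was CheB38b, of a family of secreted proteins known from gustatory hairs, listed at 0 in hsromega66 and 2.84 FPKM in control, with q = 0.00546 in the authors' deposited table. Its relatives CheB42a, CheB42c and CheA29a did not pass, with log2 differences of -0.049, -0.19 and 0.28. The degenerin channel gene rpk stood at 1.68 FPKM in hsromega66 and 0.436 FPKM in control, with p = 0.0120 and q = 0.449 in the authors' deposited table.

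Soluble proteins of the chemosensory protein family were abundant beside the Obps. Phk-3 was listed at 275 FPKM in hsromega66 and 231 FPKM in control, and EbpIII at 73.5 FPKM in hsromega66 and 50.6 FPKM in control, with a lowest p of 0.0878 for EbpIII in the authors' deposited table. Snmp1, the membrane protein of pheromone-sensing neurons, was at 3.22 FPKM in hsromega66 and 3.37 FPKM in control. Os-C, named for its olfactory expression, was listed at 0.00120 FPKM in hsromega66 and 1.13 FPKM in control, with p = 0.243 in the authors' deposited table. The G protein subunit genes Galphaq (16.0 FPKM in hsromega66, 14.3 FPKM in control) and Galphas (52.4 FPKM in hsromega66, 55.2 FPKM in control), used in many cell types, differed by 0.15 and -0.074 on the log2(FPKM + 1) scale.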

How the data were processed

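Total RNA of whole larvae was sequenced as paired reads of 100 bp after ribosomal RNA depletion with a stranded kit, per the labels' protocols. The submitters' processing notes name Cuffdiff 2.1.1, Cufflinks, TopHat and Bowtie, and the build dm6. For each of 21529 transcripts the authors deposited an FPKM value pooled over the 2 libraries of a genotype, a log2 fold change, and p-values with their adjusted q, per the file headers. The deposited log2 values differed from the log2 ratio of the FPKM columns by at most 5.14e-05. No test was run on pooled values: a gene was called where a transcript had a deposited q of at most 0.05. The labels do not say whether libraries came from separate cultures, so p-values may not cover that spread.

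FPKM was summed per gene, and differences used a pseudocount of 1, with no filter on low values. Identifiers were matched to Ensembl 115 for position, overlap and family size, with dm6 coordinates. Members and lists were chosen with earlier results of these data known. Members were named by a rule: an unadjusted p of at most 0.05, the 8 highest levels of each family, its 3 highest and 3 lowest differences, and those with a transcript listed at 0. Other members, the clusters, the Obp classes and the neighbouring genes were chosen after values were seen. Promoter and protein sequences were not used here. The steps were tested on simulated data. Python 3.11.15, numpy 2.4.6, pandas 2.3.3 and matplotlib 3.10.9 were used.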

Additional observations from a re-analysis of the deposited data

How the results depend on the processing

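No paired analysis was possible because the values are pooled over the libraries of each genotype, and for the same reason no library could be left out. The count of called members was 0 with a q of at most 0.1 or with transcripts of at least 1 FPKM, and 3 with an unadjusted p of at most 0.05. The median difference of all 36 members and that of the 23 Obp genes moved by at most 0.1 under another pseudocount, FPKM filters, centring, the main transcript or without overlapping genes, the last chosen after seeing the data. Medians of the small receptor families moved more. With a pseudocount of 0.1 the Ir median was -0.66. With the main transcript alone the Or median was -0.72. That value rests on Or71a, whose 2 transcripts had nearly equal mean levels. The one taken as main differed by -1.12 and the other by 1.06, so the direction depends on that choice. With a filter at 1 or 5 FPKM the Gr median was -0.38. Without overlapping genes it was 0.091 for Gr (1 gene) and -0.69 for Ir (2 genes). Of the 23 members named by the rule, 0 changed sign, 10 moved by over 0.1 with the smaller pseudocount and 2 with the main transcript. The number of receptors counted as detected depends on the limit. At 5 FPKM it was 0 in hsromega66 and 0 in control for Or, 0 and 1 for Gr, and 0 and 0 for Ir genes. At 0.5 FPKM it was 4 for Gr in control and 5 for Ir in hsromega66. Without Obp99b the Obp sum was 2643 FPKM in hsromega66 and 2385 FPKM in control, so the family's lower sum in hsromega66 rests on that gene. Depth per library is unknown, which limits what the low receptor values can show.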
